A study of Saccharomyces cerevisiae with 12 samples.

Results

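The histone genes of *S. cerevisiae* were examined in RNA-seq libraries of strains deleted, by their labels, for either or both subunits of the Tup1-Cyc8 co-repressor. The 10 genes were chosen by name among the 6400 named genes, with earlier results of these data known, not by their values. They are the 8 genes of the core histones, *HTA1* and *HTA2* (H2A), *HTB1* and *HTB2* (H2B), *HHT1* and *HHT2* (H3), *HHF1* and *HHF2* (H4), with *HTZ1*, which encodes the variant H2A.Z, and *HHO1*, which encodes the linker histone H1. All 10 passed the filter on low counts in every comparison. The 4 genotypes, each represented by 1 strain, were *tup1* (*tup1Δ::KanMX4*), *cyc8* (*cyc8Δ::KanMX4*), *tup1 cyc8* (*tup1Δ::KanMX4*, *cyc8Δ::URA3*) and wt (BY4741). All are MATa haploids that carry *his3Δ1*, *leu2Δ0*, *met15Δ0* and *ura3Δ0*. Total RNA was taken from 3 biological replicates of each strain, 12 libraries in all, in exponential growth in rich medium with 2% glucose, and was sequenced after rRNA depletion.

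Histones form the nucleosome, in which H2A, H2B, H3 and H4 wrap DNA. In budding yeast each core histone is made from a pair of genes, and an H2A gene is always transcribed away from an H2B gene, and an H3 gene away from an H4 gene, from a shared promoter. These genes are transcribed mainly as cells enter S phase, when new chromatin is assembled. The activator Spt10 binds an upstream activating sequence in these promoters, while the HIR complex represses all of the core loci apart from *HTA2-HTB2*. Tup1p and Cyc8p are recruited to promoters by DNA-binding repressors and are best known for repressing genes of sugar use, mating type, stress and flocculation.

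The promoter sequences are shown because the paired genes that are compared below share them. The R64 assembly was searched for the Spt10 element (TTCC, then 6 bases of any kind, then TTCNC, where N is any base) on both strands within 500 bases before each coding start, and overlapping matches were counted. All 8 core genes had a match, and *HTZ1* and *HHO1* had none, whereas 174 of 6000 protein-coding genes (2.90%) had a match. The element is one that Spt10 binds in these same promoters, so a match there is no independent result, and divergent genes share it. The *HTB1-HTA1* promoter held 2 matches, which was seen for 8 of the 6000 genes (0.133%), and each of the other core promoters held 1. A match is a stretch of letters, and binding was not measured. The matches stand in capitals below, with flanking bases, on the + strand of the R64 assembly, and a match on the - strand appears as its reverse complement.
HTB1-HTA1, chrIV:915104-915161, 2 matches: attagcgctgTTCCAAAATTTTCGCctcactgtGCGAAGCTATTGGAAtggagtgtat
HTA2-HTB2, chrII:236098-236132, 1 match: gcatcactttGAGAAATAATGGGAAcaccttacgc
HHF1-HHT1, chrII:255934-255968, 1 match: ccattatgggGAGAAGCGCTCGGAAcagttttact
HHT2-HHF2, chrXIV:576336-576370, 1 match: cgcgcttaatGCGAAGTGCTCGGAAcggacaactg

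The 4 core loci lie on 3 chromosomes. *HTB1* (YDR224C, chrIV:914317-914712, - strand) and *HTA1* (YDR225W, chrIV:915530-915928, + strand) were 817 bases apart. *HTA2* (YBL003C, chrII:235394-235792, - strand) and *HTB2* (YBL002W, chrII:236492-236887, + strand) were 699 bases apart. *HHF1* (YBR009C, chrII:255373-255684, - strand) and *HHT1* (YBR010W, chrII:256331-256741, + strand) were 646 bases apart, and *HHT2* (YNL031C, chrXIV:575640-576050, - strand) and *HHF2* (YNL030W, chrXIV:576727-577038, + strand) 676 bases. *HTZ1* (YOL012C, chrXV:303579-303983, - strand) and *HHO1* (YPL127C, chrXVI:308828-309604, - strand) stand alone. Each of the 10 genes is annotated as 1 exon, and none overlapped another annotated gene.

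**Figure D1:**
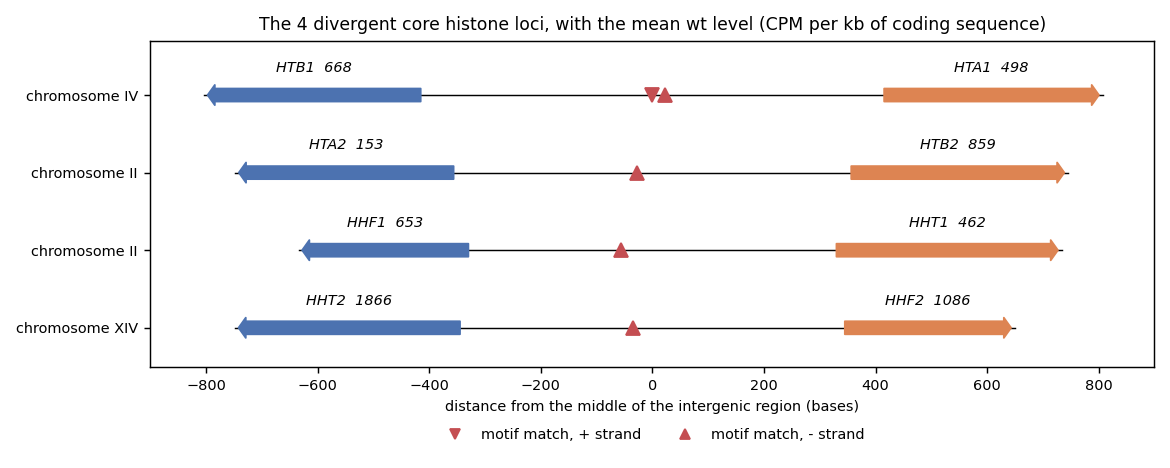
The 4 divergent core loci, drawn to scale by distance in bases from the middle of the intergenic region, with arrows for the coding sequences and triangles for motif matches. The mean wt level beside each gene, in CPM per kb of coding sequence, runs from 153 for *HTA2* to 1866 for *HHT2*, and each promoter has 1 match apart from *HTB1-HTA1* with 2.

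The coding sequences are shown because the comparison of paired copies rests on telling their reads apart. The first 90 coding bases of each copy follow, with the bases that differ between the copies in capitals.
HTA1, chrIV:915530-915619, + strand: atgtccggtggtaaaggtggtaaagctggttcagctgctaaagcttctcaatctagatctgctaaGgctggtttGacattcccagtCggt
HTA2, chrII:235703-235792, - strand: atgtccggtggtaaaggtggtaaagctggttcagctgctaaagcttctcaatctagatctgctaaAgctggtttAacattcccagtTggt
HTB1, chrIV:914623-914712, - strand: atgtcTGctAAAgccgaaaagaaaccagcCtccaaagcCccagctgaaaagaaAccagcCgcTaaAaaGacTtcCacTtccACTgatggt
HTB2, chrII:236492-236581, + strand: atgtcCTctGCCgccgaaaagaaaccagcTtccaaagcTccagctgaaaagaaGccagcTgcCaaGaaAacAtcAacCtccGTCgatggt
HHT1, chrII:256331-256420, + strand: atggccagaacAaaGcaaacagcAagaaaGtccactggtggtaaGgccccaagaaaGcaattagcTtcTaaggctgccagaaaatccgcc
HHT2, chrXIV:575961-576050, - strand: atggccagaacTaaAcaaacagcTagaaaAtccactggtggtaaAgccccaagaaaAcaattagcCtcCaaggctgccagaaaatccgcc
HHF1, chrII:255595-255684, - strand: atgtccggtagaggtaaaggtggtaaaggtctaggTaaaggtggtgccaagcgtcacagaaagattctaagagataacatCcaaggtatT
HHF2, chrXIV:576727-576816, + strand: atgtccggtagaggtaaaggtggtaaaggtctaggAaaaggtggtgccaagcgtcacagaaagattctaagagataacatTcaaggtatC

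Over the whole coding sequence, 48 of 396 bases differed between *HTB1* and *HTB2* and 25 of 399 between *HTA1* and *HTA2*, whose proteins differed at 4 and 2 residues. The H3 genes differed at 28 of 411 bases and the H4 genes at 8 of 312, with no change of residue, so each of these pairs encodes a single protein. Of the stretches of 31 bases in a gene, 1.37% occurred elsewhere in the genome for the H2B genes, 12.5% for H2A, 24.4% for H3 and 40.8% for H4. None of the stretches of 100 bases did. Only reads with a single gene hit were counted, so levels of *HHF1*, *HHF2*, *HHT1* and *HHT2* in particular leave out an unknown share of reads, and these levels are uncertain.

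The libraries held between 12643361 and 17898833 counts on named genes. *TUP1* was at 16.9 to 20.8 CPM in *tup1* and at 19.5 to 21.5 CPM in *tup1 cyc8*, against 455 to 479.6 CPM in wt. *CYC8* was at 7.31 to 9.33 CPM in *cyc8* but at 79.3 to 88.3 CPM in *tup1 cyc8*, against 181 to 198 CPM in wt, while *URA3*, the marker given for that deletion in the double mutant, had 411 to 687 counts there and at most 2 in any other library. The double mutant thus kept *CYC8* reads at 44.7% of the wt mean, against 4.52% in *cyc8*. The study reports that its strain constructions were checked by PCR, western blot or both, and for phenotype or function where relevant. It lists a primer pair for deletion of *CYC8*, without naming the strain made with it. Where these primers match *CYC8* was not examined here, and *tup1 cyc8* stands below for the libraries of that label. CPM are read counts scaled to library size with TMM factors. Each mutant was compared with the same 3 wt libraries in edgeR's quasi-likelihood test, and a gene was called where its p, adjusted by Benjamini-Hochberg over every gene in the fit, did not exceed 0.01, whatever its fold change. With scaling by library size alone the median gene moved to a log2 fold change of -0.16 (*tup1*), -0.38 (*cyc8*) and -0.50 (*tup1 cyc8*), against -0.03 in each mutant with TMM, and the calls in *tup1 cyc8* to 762 higher and 2959 lower, against 1250 and 811 with TMM (725 and 1617 against 968 and 337 in *cyc8*, 514 and 368 against 622 and 221 in *tup1*). The changes below are therefore relative to the bulk of genes.

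In wt the paired genes differed in level, most for H3 and H2A and least for H2B. Per kb of coding sequence the H3 gene *HHT2* was highest, at 1866 ± 52.4 CPM per kb (SD, n = 3), and its neighbour *HHF2* followed at 1086 ± 124 CPM per kb. *HTB2* had 859 ± 68.7, *HTB1* 668 ± 25.9 and *HHF1* 653 ± 62.6 CPM per kb, and the libraries of *HTB1* and *HHF1* overlapped. *HTA1* (498 ± 56.0) and *HHT1* (462 ± 33.8 CPM per kb) overlapped as well. *HTA2*, at 153 ± 17.85 CPM per kb, was lowest of the core genes. *HTZ1* had 106 ± 1.43 and *HHO1* 73.3 ± 13.7 CPM per kb, and neither overlapped its neighbours in this order. Divided by the stretches of 31 bases found once in the genome instead, *HHF1* moved above *HTB2*, at 1219 against 942 CPM per kb of such stretches, and *HHT1* above *HTA1*, at 659 against 615.

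Several core histone mRNAs fell in *cyc8* and in *tup1 cyc8*, and none was called in *tup1*. In *cyc8*, 3 of the 10 genes fell and 0 rose, beside 5.66% of all genes lower and 16.3% higher. In *tup1 cyc8*, 6 fell and 0 rose, beside 13.6% of all genes lower and 21.0% higher. In *tup1* none was called in either direction, beside 10.5% of all genes higher and 3.73% lower. The lowest adjusted p there in edgeR's test was that of *HTB2* (0.035). DESeq2 called *HTB2* higher, beside 834 of 5927 genes higher and 338 lower. The median log2 fold change of the 10 genes was 0.16 (*tup1*), -0.49 (*cyc8*) and -0.61 (*tup1 cyc8*), against -0.03 for all genes in each comparison. With the libraries of a mutant all outside the range of the wt libraries as the measure, the same 6 genes (*HTA1*, *HTA2*, *HTB1*, *HHT1*, *HHF1* and *HHF2*) lay below wt in *cyc8* and in *tup1 cyc8*, beside 27.6% and 32.1% of all genes, and none lay above wt, beside 28.4% and 30.4%. In *tup1*, 1 gene (*HTB2*) lay above wt and none below, beside 22.0% and 19.5% of all genes. Fewer cells in S phase and less histone mRNA per cell cannot be told apart in these bulk samples.

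**Figure D2:**
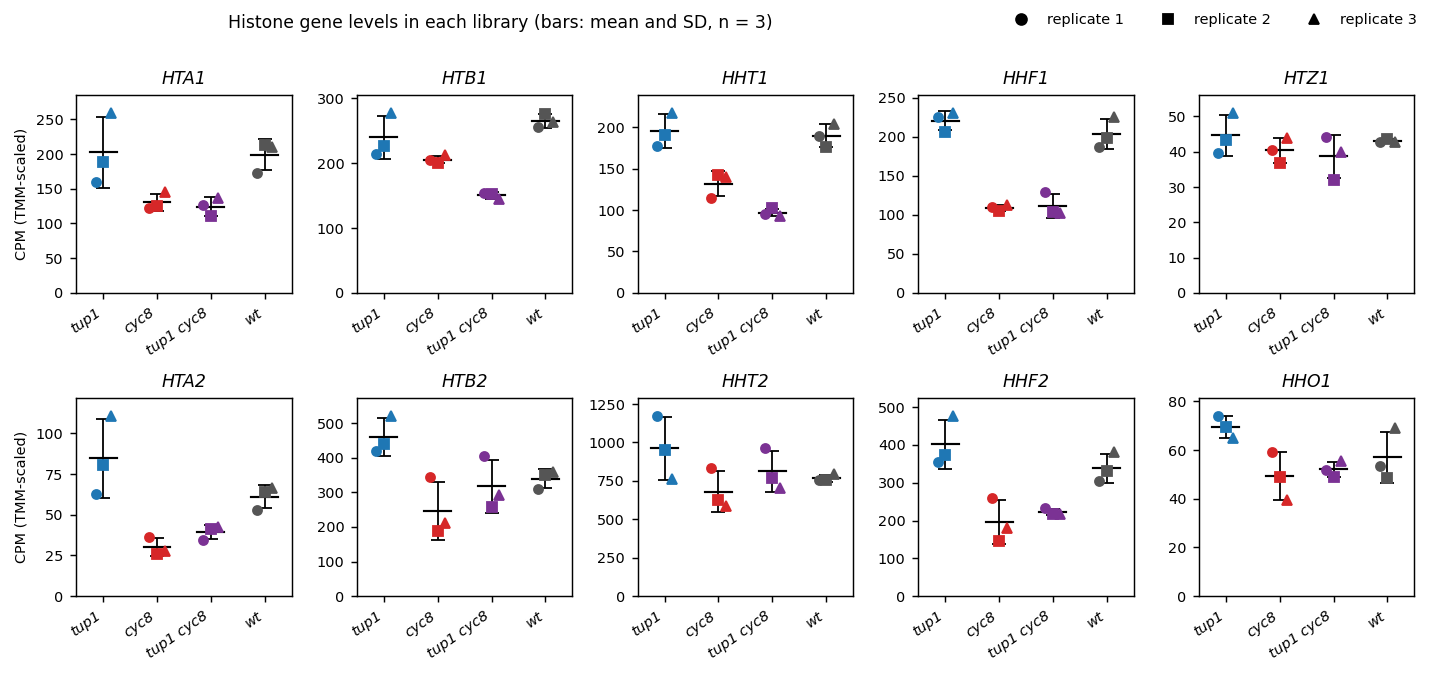
Level of each histone gene in the 12 libraries, in TMM-scaled CPM on a linear axis from 0, with symbols for the replicates and bars for the mean and SD (n = 3). For *HHF1* the *cyc8* libraries sit at 105 to 112 CPM and the *tup1 cyc8* libraries at 102 to 129 CPM, all below wt, and for *HTB2*, *HHT2* and *HHF2* replicate 1 of *cyc8* stands above the other replicates.

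H2A pairs with H2B in the nucleosome and carries the phosphorylation site that marks DNA breaks in yeast. *HTA1*, the more abundant H2A gene, had 159.9, 189 and 259 CPM in *tup1*, 122, 126 and 145 CPM in *cyc8*, 127, 110.2 and 136 CPM in *tup1 cyc8*, and 173, 213 and 210.3 CPM in wt. All libraries of *cyc8* and *tup1 cyc8* were below every wt library, while those of *tup1* spanned the wt range. The log2 fold change against wt was -0.60 in *cyc8* (SE 0.13, adjusted p = 0.0098 in edgeR's test). It was -0.66 in the double mutant (SE 0.13, adjusted p = 0.0030). It was 0.01 in *tup1* (SE 0.18, adjusted p = 0.98). *HTA2*, the minor H2A gene, had 62.6, 80.5 and 111 CPM in *tup1*, 36.5, 26.2 and 27.9 CPM in *cyc8*, 34.7, 41.4 and 42.2 CPM in *tup1 cyc8*, and 53.1, 63.8 and 66.6 CPM in wt. It fell the most of the 10 genes in *cyc8*, where no library reached the lowest wt library. *HTA2* changed by -1.02 on the log2 scale in *cyc8* (SE 0.16, adjusted p = 0.0021) and by -0.62 in the double mutant (SE 0.13, adjusted p = 0.0043). In *tup1* it was 0.45 above wt (SE 0.19, adjusted p = 0.13), which did not pass. The *HTA1* call was lost in *cyc8* without *cyc8* replicate 2 or 3 or any wt replicate, with RLE scaling, with at least 10 counts required in every library and with the replicate block, and in *tup1 cyc8* without *tup1 cyc8* replicate 2 or wt replicate 2. The *HTA2* call was lost in *cyc8* without *cyc8* replicate 2 or 3 or wt replicate 2, and in *tup1 cyc8* without any *tup1 cyc8* replicate or wt replicate 2 and with the 12 libraries in the fit (adjusted p = 0.016).

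H2B is the histone whose ubiquitylation accompanies transcription. *HTB1* had 214, 227 and 277 CPM in *tup1*, 205, 199.6 and 212 CPM in *cyc8*, 154, 153 and 144 CPM in *tup1 cyc8*, and 255, 276 and 263 CPM in wt. The *tup1 cyc8* libraries lay below those of every other strain, and the *cyc8* libraries between them and wt. *HTB1* fell by 0.80 on the log2 scale in *tup1 cyc8* (SE 0.09, adjusted p = 0.00019). Its change of -0.36 in *cyc8* (SE 0.10, adjusted p = 0.026) did not pass, nor did that of -0.16 in *tup1* (SE 0.12, adjusted p = 0.34). *HTB2*, the other H2B gene, had 419, 441 and 521 CPM in *tup1*, 343, 187 and 210.3 CPM in *cyc8*, 405, 258 and 291 CPM in *tup1 cyc8*, and 309, 351 and 359.8 CPM in wt. It was above wt in each *tup1* library, and in both other mutants replicate 1 lay within or above the wt range and replicates 2 and 3 below it. No change of *HTB2* passed the test, with 0.42 in *tup1* (SE 0.12, adjusted p = 0.035), -0.46 in *cyc8* (SE 0.23, adjusted p = 0.14) and -0.09 in *tup1 cyc8* (SE 0.17, adjusted p = 0.69). Without *cyc8* replicate 1 it was called lower in *cyc8*, at -0.79 (adjusted p = 0.0012).

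H3 carries many of the modifications of active and silent chromatin. *HHT1*, the less abundant H3 gene, had 177, 191 and 217 CPM in *tup1*, 114, 142 and 139 CPM in *cyc8*, 95.7, 102 and 93.0 CPM in *tup1 cyc8*, and 189, 176 and 204 CPM in wt. The *tup1 cyc8* libraries were lowest, the *cyc8* libraries next, and neither overlapped wt or the other. *HHT1* fell by 0.96 on the log2 scale in *tup1 cyc8* (SE 0.10, adjusted p = 0.00012), the largest decrease of the 10 genes there. In *cyc8* its change of -0.53 (SE 0.13, adjusted p = 0.016) did not pass, and in *tup1* it was 0.02 (SE 0.11, adjusted p = 0.91). *HHT2*, the most abundant core histone gene, had 1172, 954 and 760.4 CPM in *tup1*, 834, 623 and 586 CPM in *cyc8*, 962, 769 and 703 CPM in *tup1 cyc8*, and 755, 754 and 792 CPM in wt. In each mutant replicate 1 was the highest library and replicate 3 the lowest, and all of the mutants overlapped wt. The changes of *HHT2* were 0.31 in *tup1* (SE 0.16, adjusted p = 0.19), -0.17 in *cyc8* (SE 0.16, adjusted p = 0.40) and 0.09 in *tup1 cyc8* (SE 0.13, adjusted p = 0.58), none of which passed.

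H4 is the partner of H3, and its acetylated tail keeps chromatin open. *HHF1* had 225, 207 and 231 CPM in *tup1*, 109.9, 105 and 112 CPM in *cyc8*, 129, 103 and 102 CPM in *tup1 cyc8*, and 187, 199 and 225 CPM in wt. Its mean was 53.5% of the wt level in *cyc8* and 54.8% in *tup1 cyc8*, and neither overlapped wt. *HHF1* fell by 0.90 on the log2 scale in *cyc8* (SE 0.12, adjusted p = 0.00076) and by 0.86 in the double mutant (SE 0.13, adjusted p = 0.00086). It was the only one of the 10 genes called in *cyc8* whichever library was left out. In *tup1* the change was 0.10 (SE 0.11, adjusted p = 0.54). *HHF2*, its paired copy, had 356, 373 and 477 CPM in *tup1*, 259, 146 and 181 CPM in *cyc8*, 233, 218 and 217 CPM in *tup1 cyc8*, and 305, 331 and 381 CPM in wt. No *cyc8* or *tup1 cyc8* library reached wt, with *cyc8* replicate 1 the closest. *HHF2* fell by 0.59 in *tup1 cyc8* (SE 0.11, adjusted p = 0.0028), while -0.79 in *cyc8* (SE 0.21, adjusted p = 0.022) and 0.23 in *tup1* (SE 0.14, adjusted p = 0.27) did not pass. The *HHF2* call in *tup1 cyc8* was lost without *tup1 cyc8* replicate 2 or 3 or wt replicate 2 and with the 12 libraries in the fit (adjusted p = 0.016). Without *cyc8* replicate 1, *HTA1*, *HTA2*, *HTB2*, *HHT1*, *HHF1* and *HHF2* were called lower in *cyc8*, 6 genes in place of 3, beside 17.6% of all genes lower and 21.1% higher in that fit.

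The genes of H2A.Z, a variant found at nucleosomes beside promoters, and of H1, which binds linker DNA, did not pass in any mutant. *HTZ1* had 39.6, 43.4 and 51.0 CPM in *tup1*, 40.4, 36.9 and 43.9 CPM in *cyc8*, 44.1, 32.1 and 39.9 CPM in *tup1 cyc8*, and 42.7, 43.7 and 42.7 CPM in wt. The wt libraries were nearly equal and lay inside the range of *tup1* and *tup1 cyc8* and within the upper range of *cyc8*. The log2 fold changes of *HTZ1* were 0.04 (SE 0.11), -0.09 (SE 0.11) and -0.14 (SE 0.13) in *tup1*, *cyc8* and *tup1 cyc8*, with adjusted p from 0.37 to 0.84. With library size only, *HTZ1* and *HHO1* were called lower in *tup1 cyc8*, at -0.62 and -0.60, which brings the count there to 8. Among all 5942 genes, 2959 were lower in that setting. *HHO1* had 74.0, 69.5 and 65.0 CPM in *tup1*, 59.3, 48.9 and 39.7 CPM in *cyc8*, 51.7, 49.0 and 55.5 CPM in *tup1 cyc8*, and 53.6, 48.4 and 68.9 CPM in wt. Every mutant overlapped wt. The log2 fold changes of *HHO1* were 0.27 (*tup1*, SE 0.14), -0.21 (*cyc8*, SE 0.19) and -0.12 (*tup1 cyc8*, SE 0.14), with adjusted p from 0.20 to 0.50.

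**Figure D3:**
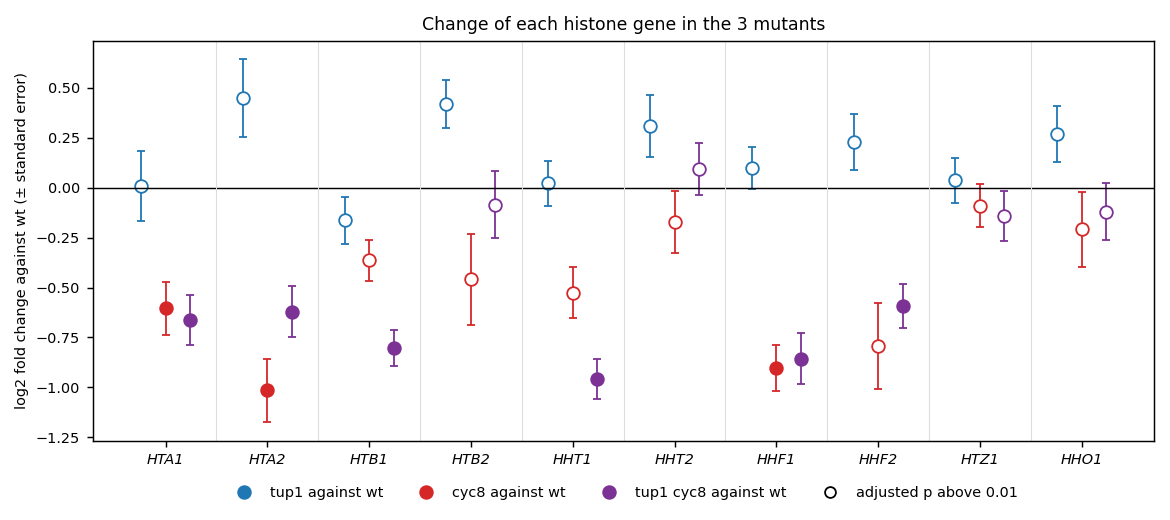
Log2 fold change of the 10 histone genes against wt with its standard error (edgeR, 3 against 3 libraries), filled where the adjusted p was at most 0.01. Values run from -0.16 to 0.45 in *tup1*, from -1.02 to -0.09 in *cyc8* and from -0.96 to 0.09 in *tup1 cyc8*, with 0, 3 and 6 filled points.

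A fit that held the 12 libraries together compared the mutants directly. Several histone genes were lower in *cyc8* and in *tup1 cyc8* than in *tup1*. In *cyc8*, 5 of the 10 were called lower than in *tup1* and 0 higher, beside 5.0% of all genes lower and 9.77% higher. These were *HTA2* (-1.49, SE 0.20), *HHF2* (-1.04, SE 0.19), *HHF1* (-1.02, SE 0.12), *HTB2* (-0.90, SE 0.22) and *HHT1* (-0.57, SE 0.12). In *tup1 cyc8*, 6 were called lower than in *tup1* and 0 higher, beside 4.62% and 9.26% of all genes. *HTA2* (-1.10, SE 0.19), *HHT1* (-1.01, SE 0.12) and *HHF1* (-0.98, SE 0.12) differed most, and *HTA1*, *HTB1* and *HHF2* by -0.70, -0.67 and -0.85. The count was again 6 with the replicate number as a block, whether or not the *cyc8* and wt libraries were included. Where a call also needed an absolute log2 fold change of 1 or more, 1 gene was lower in *cyc8* than in wt and 0 were lower in *tup1 cyc8* than in wt, beside 1.91% and 1.88% of all genes, and 3 were lower in *cyc8* than in *tup1* and 2 in *tup1 cyc8* than in *tup1*, beside 1.43% and 0.334%.

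Between *tup1 cyc8* and *cyc8* no histone gene was called, beside 3.09% of all genes higher and 0.801% lower. The lowest adjusted p in edgeR's test were those of *HTB1* (-0.45, SE 0.11, adjusted p = 0.021) and *HHT1* (-0.44, SE 0.12, adjusted p = 0.033). DESeq2 called both lower in *tup1 cyc8*, beside 174 of 5995 genes lower and 343 higher. A test of whether *tup1 cyc8* differed from the sum of the changes of the single mutants called 0 of the 10 in edgeR and 0 in DESeq2, beside 2.32% of all genes above the sum and 6.79% below it. *HHT1*, at -0.48 against the sum (SE 0.17, adjusted p = 0.068 in edgeR), had the lowest adjusted p of the 10.

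Summed over the 8 core genes, histone mRNA made up 0.309%, 0.286% and 0.294% of the counts in *tup1*, 0.201%, 0.140% and 0.143% in *cyc8*, 0.183%, 0.155% and 0.143% in *tup1 cyc8*, and 0.267%, 0.273% and 0.297% in wt. Every library of *cyc8* and *tup1 cyc8* lay below every wt library in this share. The share is not scaled with TMM factors. With library size only, the median gene itself had a log2 fold change of -0.38 in *cyc8* and -0.50 in *tup1 cyc8*. In TMM-scaled CPM the sums were 2786, 2662 and 2854 in *tup1*, 2023, 1555 and 1613 in *cyc8*, 2140.2, 1754 and 1729.7 in *tup1 cyc8*, and 2227, 2363 and 2501 in wt, and again no library of *cyc8* or *tup1 cyc8* reached wt. *HHT2* alone held 26.6% to 42.1% of the core sum in *tup1*, 36.3% to 41.2% in *cyc8* and 40.7% to 44.9% in *tup1 cyc8*, against 31.7% to 33.9% in wt. Its share was thus above wt in all libraries of *cyc8* and *tup1 cyc8*. By histone, H4 averaged 623 ± 73.3 CPM in *tup1*, 304 ± 59.9 in *cyc8*, 334 ± 24.2 in *tup1 cyc8* and 542 ± 58.2 in wt (SD, n = 3 each). H3 averaged 1157 ± 186 CPM in *tup1*, 813 ± 119 in *cyc8*, 908 ± 135 in *tup1 cyc8* and 957 ± 34.5 in wt. H2A averaged 287 ± 75.4 CPM in *tup1*, 161 ± 10.7 in *cyc8*, 164 ± 13.6 in *tup1 cyc8* and 259.9 ± 29.3 in wt. H2B averaged 699.8 ± 87.3 CPM in *tup1*, 452 ± 84.8 in *cyc8*, 468 ± 79.2 in *tup1 cyc8* and 605 ± 35.03 in wt.

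The balance of the paired copies was compared as the ratio of their counts within a library, which no scaling between libraries can move. Over the 4 strains, an exact permutation test of the log2 ratio over the 12 libraries gave p = 0.0046 for *HTA1* to *HTA2*, 0.021 for *HTB1* to *HTB2*, 0.044 for *HHT1* to *HHT2* and 0.55 for *HHF1* to *HHF2*. Adjusted over the 4 ratios these were 0.018, 0.041, 0.059 and 0.55, so the H2A and H2B ratios passed 0.05 after adjustment and the H3 ratio did not. With libraries exchanged only within a replicate number (the replicate block) the exact p were 0.024, 0.040, 0.021 and 0.60, and 0.049, 0.053, 0.049 and 0.60 after adjustment. Only the H2A ratio thus passed both ways, and the H2B and H3 ratios lay on either side of 0.05. A comparison of 3 against 3 libraries cannot reach an exact p below 0.10, so a single mutant against wt is given by its values.

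*HTA1* made up 71.9%, 70.1% and 70.1% of the H2A counts in *tup1*, 76.9%, 82.8% and 83.8% in *cyc8*, 78.5%, 72.7% and 76.4% in *tup1 cyc8*, and 76.5%, 76.9% and 76.0% in wt. It was below wt in every *tup1* library, above in every *cyc8* library by little in replicate 1, and on both sides in *tup1 cyc8*. *HTB1* made up 33.8%, 34.0% and 34.7% of the H2B counts in *tup1*, 37.4%, 51.6% and 50.2% in *cyc8*, 27.6%, 37.2% and 33.2% in *tup1 cyc8*, and 45.2%, 44.0% and 42.2% in wt. The *tup1* and *tup1 cyc8* libraries all lay below wt, and *cyc8* lay on both sides, with replicate 1 low. In *tup1*, then, the counts were shifted towards *HTA2* and *HTB2*, which share a promoter, with exact p = 0.10 for each ratio, the smallest that 3 against 3 allows. The log2 ratio differed from wt by -0.43 for the H2A copies and by -0.59 for the H2B copies.

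*HHT1* made up 13.1%, 16.7% and 22.2% of the H3 counts in *tup1*, 12.03%, 18.5% and 19.2% in *cyc8*, 9.05%, 11.7% and 11.7% in *tup1 cyc8*, and 20.05%, 18.9% and 20.5% in wt. The *tup1 cyc8* libraries were all below wt, with a difference of -1.04 in mean log2 ratio (exact p = 0.10). The other mutants overlapped wt. *HHF1* made up 38.7%, 35.6% and 32.6% of the H4 counts in *tup1*, 29.8%, 41.8% and 38.2% in *cyc8*, 35.7%, 32.1% and 32.0% in *tup1 cyc8*, and 38.0%, 37.6% and 37.2% in wt. Only *tup1 cyc8* lay apart from wt here, by -0.27 in log2 ratio (exact p = 0.10). In *cyc8* replicate 1 the share of copy 1 was the lowest of the strain in all 4 pairs. The 95% Wilson intervals of these shares were 0.954 to 3.85 percentage points wide and cover counting error only.

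**Figure D4:**
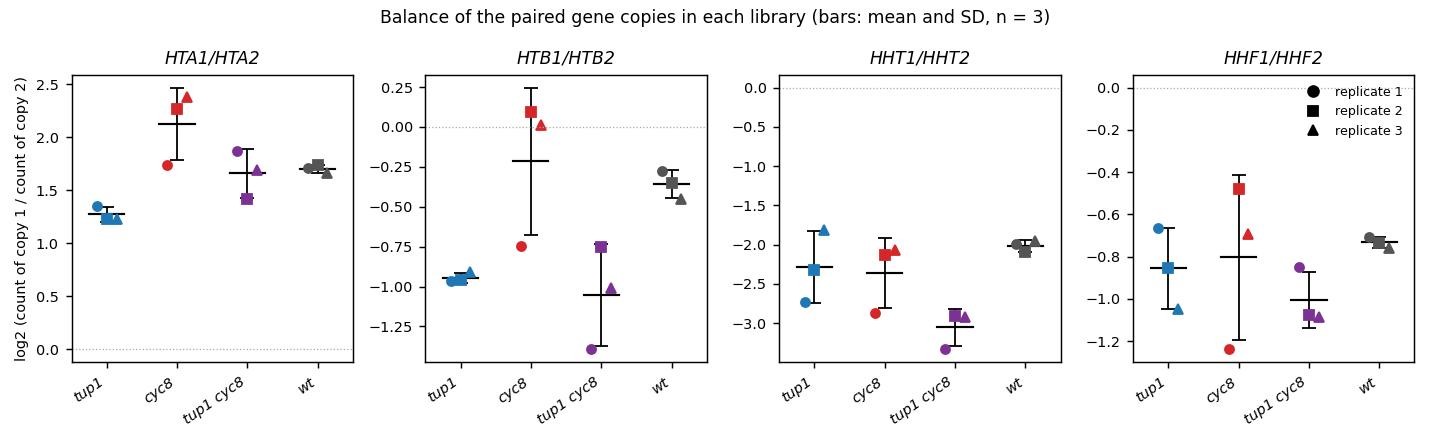
Log2 ratio of the counts of copy 1 to copy 2 for the 4 pairs of core histone genes in each library, with symbols for the replicates and bars for the mean and SD (n = 3). The *HTB1/HTB2* ratio sits between -0.97 and -0.91 in *tup1* and between -1.39 and -0.76 in *tup1 cyc8*, below the wt libraries at -0.45 to -0.28, and *cyc8* replicate 1 is lowest of its strain in all panels.

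Of 12 genes that control histone transcription, 0 were called in *tup1*, 1 was higher and 0 lower in *cyc8*, and 1 was higher and 2 were lower in *tup1 cyc8*. These counts stand, as do those of the lists that follow, beside 10.5% higher and 3.73% lower among all genes in *tup1*, 16.3% and 5.66% in *cyc8*, and 21.0% and 13.6% in *tup1 cyc8*, and no list was tested against other genes. Their median log2 fold changes were -0.13, -0.24 and -0.28, against -0.03 for all genes. *SWI4*, the DNA-binding subunit of the SBF activator of G1/S genes, was higher in *cyc8* (0.61, SE 0.12, adjusted p = 0.0070) and *tup1 cyc8* (0.46, SE 0.11, adjusted p = 0.0074). *SPT21*, which acts with Spt10 at histone promoters, fell by 0.65 in *tup1 cyc8* (SE 0.15, adjusted p = 0.0068). *YTA7*, whose product binds histone genes, fell by 0.38 there (SE 0.09, adjusted p = 0.0082). *SPT10* itself had log2 fold changes of -0.05 (*tup1*), -0.14 (*cyc8*) and -0.0023 (*tup1 cyc8*). The HIR subunit genes *HIR1*, *HIR2*, *HIR3* and *HPC2* ranged from -0.26 to -0.12 in *tup1*, from -0.43 to 0.01 in *cyc8* and from -0.45 to -0.16 in *tup1 cyc8*, and none passed. Of the chaperones that work with HIR, *ASF1* had 0.50, 1.02 and 0.59 in *tup1*, *cyc8* and *tup1 cyc8*, with adjusted p of 0.014, 0.017 and 0.094, and *RTT106* 0.06, -0.09 and -0.40.

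Of 15 genes of histone chaperones and deposition, 0 were called in *tup1*, 2 were lower in *cyc8* and 6 were lower and 1 higher in *tup1 cyc8*, with medians of -0.09, -0.06 and -0.24. *SPT6*, an H3-H4 chaperone of transcribed genes, fell by 0.85 in *cyc8* and by 0.78 in *tup1 cyc8* (adjusted p = 0.0090 and 0.00035), and *RLF2*, the large subunit of the replication-coupled factor CAF-1, by 0.53 and 0.87. *FPR4*, a nucleolar histone chaperone, fell by 0.90 in *tup1 cyc8* (SE 0.20, adjusted p = 0.0057). *CAC2*, another subunit of CAF-1, was the gene that rose there, by 0.53. Of 14 genes of H2A.Z exchange, 1 was higher (*CHZ1*, an H2A.Z chaperone, 0.52) and 2 were lower in *tup1*, 2 lower in *cyc8* and 6 lower in *tup1 cyc8*, with medians of -0.13, -0.33 and -0.43. *BDF1*, which recruits the SWR1 complex to acetylated chromatin, fell in all of the mutants, by 0.66 (*tup1*), 1.07 (*cyc8*) and 0.98 (*tup1 cyc8*) (adjusted p = 0.00070, 0.00017 and 4.4e-05). *SWC3*, a SWR1 subunit, fell by 0.61 in *tup1* and 0.89 in *tup1 cyc8*, *VPS71*, another, by 0.78 in *tup1 cyc8*, and *SWR1*, the ATPase that deposits H2A.Z, by 0.58 in *cyc8* and 0.56 in *tup1 cyc8*. Of 6 genes of histone mRNA and protein turnover, none was called in *tup1*. *RAD53*, the checkpoint kinase that also guides degradation of excess histones, rose by 0.61 in *cyc8* (SE 0.11, adjusted p = 0.0043), and *RRP6* and *TRF5*, of nuclear RNA decay, fell by 0.84 and 0.71 in *tup1 cyc8*. The medians of this list were -0.20, -0.22 and -0.28. Without *cyc8* replicate 1, the calls in *cyc8* were 2 higher and 5 lower for the regulators, 2 and 3 for the chaperones, 1 and 4 for H2A.Z exchange and 1 and 2 for turnover, where the calls over all genes also moved to 21.1% higher and 17.6% lower. With library size only, 10 of the 12 regulators, 13 of the 15 chaperone genes, 10 of the 14 exchange genes and 5 of the 6 turnover genes were lower in *tup1 cyc8*. Among all 5942 genes, 2959 were lower and 762 higher in that setting. None of the listed genes was higher, so the rises of *SWI4* and *CAC2* there were not called.

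Lists of genes that peak at set points of the cell cycle were read beside the histone genes, since these are themselves periodic. Of 17 DNA replication genes of G1/S, 2 were higher in *tup1* (*RNR1* and *PRI2*), 1 was higher in *cyc8* (*PRI2*, a primase subunit, 0.68), and 1 was higher (*RNR1*) and 8 were lower in *tup1 cyc8*, with medians of 0.03, 0.22 and -0.40. *RNR1*, the large subunit of ribonucleotide reductase, had 0.68 in *tup1*, 1.29 in *cyc8*, which did not pass (adjusted p = 0.013), and 0.67 in the double mutant, while *POL1*, of DNA polymerase alpha, and *SMC3*, of cohesin, fell by 0.89 and 0.78 in *tup1 cyc8*. The histone genes were thus low in *cyc8* beside a median above 0 of the replication genes, and low in *tup1 cyc8* beside a median below 0. With library size only the replication median in *cyc8* was -0.12, where that of all genes was -0.38. Of 7 cyclin genes of G1 and S phase, *CLN3*, the cyclin at the start of G1, was higher in *cyc8* (1.62, SE 0.21, adjusted p = 0.00081) and *tup1 cyc8* (0.96), *PCL1* was higher in *cyc8* (1.02) and *CLN2* lower in *tup1 cyc8* (-0.40). None was called in *tup1*, and the medians were 0.17, 0.24 and 0.25. With library size only they were 0.05, -0.11 and -0.22, where those of all genes were -0.16, -0.38 and -0.50.

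Of 10 G2/M genes, *CLB1*, a mitotic cyclin, was higher in *tup1* (0.48), and *BUD4*, of bud site selection, was lower in *tup1* (-0.46) and *cyc8* (-0.98), with none called in *tup1 cyc8*. Their medians were -0.13, -0.70 and -0.11, and their summed level was 484 to 550.4 CPM in *tup1*, 286 to 456 CPM in *cyc8* and 477.5 to 558 CPM in *tup1 cyc8*, against 528 to 589 CPM in wt. Without *cyc8* replicate 1, 8 of these 10 genes were lower in *cyc8* in place of 1, as were 7 of the 11 M/G1 genes in place of 1, and 4 of the 17 replication genes were higher in place of 1, beside the same 17.6% lower and 21.1% higher among all genes. Of 11 M/G1 genes, 2 were higher and 1 lower in *tup1*, 1 higher and 1 lower in *cyc8*, and 2 higher and 3 lower in *tup1 cyc8*, with medians of -0.03, -0.28 and -0.35. *DSE1* and *CTS1*, of cell separation, rose in *tup1* (0.94 and 0.83), where *AMN1* fell by 0.80, and *CDC6* rose in *cyc8* (0.72). *ASH1* and *FAR1* rose (0.52 and 0.67) and *PCL9*, *EGT2* and *DSE2* fell (-0.93, -0.74 and -0.69) in *tup1 cyc8*, and *DSE2* fell in *cyc8* (-0.81). With library size only, 15 of the 17 replication genes were lower in *tup1 cyc8* and 0 higher, and in *cyc8* 0 were called. Among all genes in that setting, 2959 of 5942 were lower and 762 higher in *tup1 cyc8*, and 1617 of 5954 and 725 in *cyc8*. The part of the cell cycle in the histone result was not tested.

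**Figure D5:**
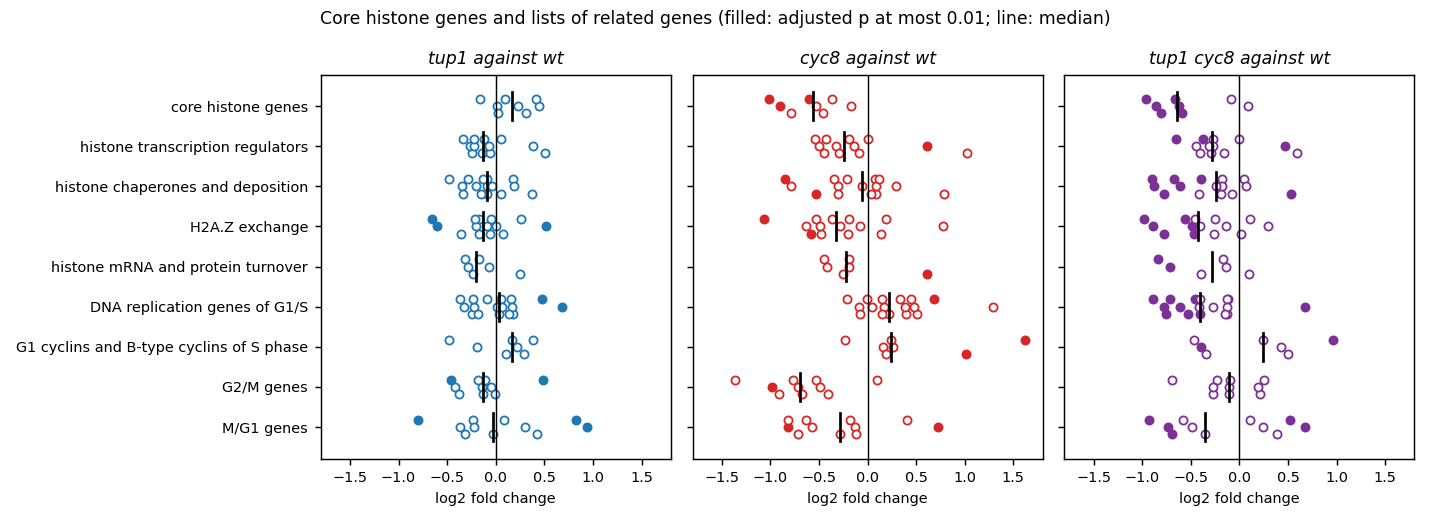
Log2 fold change against wt of the 8 core histone genes and of 8 lists of related genes in *tup1*, *cyc8* and *tup1 cyc8*, with 1 point for each gene, filled where the adjusted p was at most 0.01, and a line at the median. The median of the core histone genes is 0.16 (*tup1*), -0.56 (*cyc8*) and -0.64 (*tup1 cyc8*), and among these lists only the G2/M genes have a median further below 0 in *cyc8* (-0.70).

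The mating-type markers fitted the labelled MATa cells in part. In wt the 6 MATa genes summed to 1471 to 1758 CPM and the 4 MATalpha genes to 35.2 to 37.6 CPM, of which *SAG1* held 29.4 to 33.9, and *STE3* and both alpha-factor genes lay at 3.15 CPM or less. The MATa sum was 1720.4 to 1975 CPM in *tup1*, 781 to 862 CPM in *cyc8* and 1176 to 1709 CPM in *tup1 cyc8*. *BAR1*, the protease that degrades alpha factor, fell by 3.49 in *cyc8* and 2.38 in *tup1 cyc8*, *STE2*, the alpha-factor receptor, by 1.61 in *cyc8*, and *MFA1*, an a-factor gene, by 0.59, 2.04 and 1.26 in *tup1*, *cyc8* and *tup1 cyc8*. *STE6*, the a-factor exporter, fell by 1.39 in *cyc8* and 0.90 in *tup1 cyc8*, and *MFA2* rose by 0.70 in *tup1* and 0.69 in *tup1 cyc8*, so that 4 of the 6 fell in *cyc8*. Of the 3 MATalpha genes tested, *STE3* fell by 2.07 in *tup1* and 2.01 in *cyc8* at its low level. The MATa sum of *cyc8* thus lay below wt, beside its low histone genes. That of *tup1 cyc8* lay within the wt range in replicate 1 and below it in replicates 2 and 3. In *tup1 cyc8* 3 of the 6 MATa genes were called lower and 1 higher. The median log2 fold change of the 6 was -0.73 there, against -1.50 in *cyc8*. The part of these genes in the result was not tested.

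Among 4132 genes with a mean of at least 20 CPM, the genes whose level over the 12 libraries was most like the mean of the core histone genes were *VMA8*, of the vacuolar proton pump (Pearson's r = 0.98), *RPN8*, of the proteasome lid (0.96), *PCT1*, of phosphatidylcholine synthesis (0.95), *DSE2*, of cell separation (0.95), and *YGL082W* (0.95). These points share libraries and strain differences, and r is given as a description. *HHF1* (0.98) and *HHF2* (0.97) were closest to the core mean among the core genes and *HHT2* (0.51) was furthest. Each core gene is part of that mean, so its r cannot be set beside those of the other genes. Within a locus, r was 0.84 for *HTB1* and *HTA1*, 0.82 for *HTA2* and *HTB2*, 0.88 for *HHF1* and *HHT1*, and 0.55 for *HHT2* and *HHF2*. Between the copies of a histone it was 0.85 for H2A, 0.34 for H2B, 0.12 for H3 and 0.90 for H4. Core genes of different loci and different histones ranged from -0.02 (*HTB1* and *HHT2*) to 0.96 (*HTA2* and *HHF2*). A high r was thus not particular to a locus.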

How the data were processed

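The authors trimmed the reads with Trimmomatic 0.36, mapped them to the S288c genome with STAR 2.5.2b and made raw counts of reads with a single gene hit with featureCounts (Subread 1.5.2). The counts were deposited without normalisation, in 3 tables that share 3 identical wt columns, so the comparisons share their controls. The strand setting of the counting and the read length are not given in the sources used here. A line without a gene name, 0.0647% to 0.340% of counts, was left out. The authors' tables of normalised counts, which were made separately for each mutant, were not used. The genes and gene lists were chosen with earlier results of these data known.

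Counts were tested in R 4.3.3 with edgeR 4.0.16 (filterByExpr, TMM, glmQLFit, glmQLFTest), separately for each mutant and wt (6 libraries) and jointly over the 12 libraries for comparisons of mutants. Adjusted p are Benjamini-Hochberg values over all genes tested. SE is the log2 fold change over the square root of F. The steps were tested on simulated data. Alternatives were DESeq2 1.42.0, RLE or library size scaling, other filters and limits, all libraries in 1 fit, a replicate block and leaving out each library. The exact permutation test over the 4 strains without the replicate block enumerated 369600 arrangements in Python 3.11.15 (numpy 2.4.6, pandas 2.3.3, scipy 1.17.1). Permutation tests over the 4 strains have no direction, and all other tests were two-sided. Plots were made with matplotlib 3.10.9. The labels call the replicates biological, and p-values measure the spread between these libraries.

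From each list the called genes were named, at most 3 by the largest absolute log2 fold change, with set regulators. *CAC2*, *CHZ1*, *SWR1*, *PRI2*, *AMN1*, *CDC6*, *ASH1*, *FAR1*, *EGT2*, *STE6*, *MFA2* and *SAG1* were named after their values were seen. Positions are from the RefSeq R64 genome, which gave the same start and end for 338 of 338 genes listed by the study. Same-number residuals of *tup1* and *tup1 cyc8* correlated at 0.171, 0.200 and 0.343, so these numbers were taken as paired from the data, and no other pair of strains met this limit of 0.1 in all 3 pairs.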

Additional observations from a re-analysis of the deposited data

How the results depend on the processing

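The count of genes lower than in wt was 6 in *tup1 cyc8* and 3 in *cyc8*. In *cyc8* it was 6 with DESeq2, 6 with library size only, 5 with all 12 libraries in the fit, 2 with RLE scaling or at least 10 counts in every library, 6 with a limit of 0.05 on adjusted p and 1 with an absolute log2 fold change of at least 1, and it ran from 1 to 6 when 1 library was left out, with 6 without *cyc8* replicate 1 and 1 without *cyc8* replicate 2, *cyc8* replicate 3 or wt replicate 2. In *tup1 cyc8* the count was 4 with all 12 libraries in the fit, 8 with library size only, 0 with an absolute log2 fold change of at least 1, and 3 to 6 with 1 library left out, 3 without *tup1 cyc8* replicate 2 or wt replicate 2. In *tup1* it was 1 higher with DESeq2 and 1 with the limit of 0.05. Over all 5954 genes in *cyc8*, 733 were lower with DESeq2, 1617 with library size only and 338 with RLE scaling, against 337 in edgeR with TMM. In *tup1 cyc8*, 2959 of 5942 genes were lower with library size only, against 811. In *tup1*, 834 of 5927 genes were higher with DESeq2, against 622. No such share stands in this section beside the counts at 0.05 or with at least 10 counts in every library. The same holds for the counts with all 12 libraries in the fit, with the replicate block and with 1 library left out. Shares for an absolute log2 fold change of at least 1, and for *cyc8* against wt without *cyc8* replicate 1, are given in the Results above.

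Between *tup1 cyc8* and *cyc8* the count of 0 was 2 with DESeq2, with library size only and with the limit of 0.05, and 0 to 1 with 1 library left out (1 without *cyc8* replicate 1). Of all 5995 genes, 174 were lower and 343 higher with DESeq2, and 100 and 155 with library size only, against 48 and 185. Between *tup1 cyc8* and *tup1* the histone count was 2, and between *cyc8* and *tup1* 3, with an absolute log2 fold change of at least 1, against 6 and 5. Between *cyc8* and *tup1* it ran from 2 to 7 with 1 library left out, 2 without *cyc8* replicate 3 and 3 without *cyc8* replicate 2, *tup1* replicate 2 or *tup1* replicate 3. The exact p of the H3 ratio ran from 0.016 to 0.13, and was above 0.05 without *tup1* replicate 2 or any *tup1 cyc8* or wt replicate. With the replicate number as a block the counts were 0, 2 and 6 against wt in *tup1*, *cyc8* and *tup1 cyc8*, 6 between *cyc8* and *tup1* and 0 between *tup1 cyc8* and *cyc8*.

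The log2 fold changes that changed sign were all uncalled. In *tup1*, library size only gave -0.12 for *HTA1*, -0.10 for *HHT1*, -0.024 for *HHF1* and -0.090 for *HTZ1*, and the replicate block gave -0.014 for *HTA1*. *HTA1* ran from -0.18 to 0.17, *HHT1* from -0.037 to 0.10 and *HTZ1* from -0.045 to 0.13 in *tup1* when 1 library was left out, and *HTB2* from -0.28 to 0.043, *HHT2* from -0.033 to 0.19 and *HHO1* from -0.22 to 0.039 in *tup1 cyc8*, where library size only gave -0.38 for *HHT2*. The cause of these shifts was not tested. The fewest counts of a core gene in a library were 334, for *HTA2* in *cyc8* replicate 2.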
